A study of Homo sapiens with 18 samples.

Results

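The genes described here act in mitosis and in the spindle checkpoint. They form a list of 40 human genes chosen by symbol, and 39 of them were measured among the 18404 genes that had a named probe set. The missing one, CENPA, encodes the histone variant that marks centromeres, and it was not analysed here because its only probe set also carries the symbol SLC35F6. The cells were MCF10A, an immortal and non-tumorigenic line of human breast epithelium, and their RNA was read on 18 Affymetrix whole-transcript arrays, 3 in each of 6 groups. All cells, the controls included, had been infected with lentivirus at a multiplicity of 5, put under puromycin for 4 days at 1.5 µg/ml, and then given at least 7 days to recover. They were then transfected transiently with plasmid cDNA and kept for 5 days in the estrogen-containing medium M5.

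In 2 of the groups the cells carried the hairpin shLATS1B, against LATS1, or shLATS1+2, labelled as directed at LATS1 and LATS2, and both groups received ctrl cDNA. In the other 4 groups the cells carried the non-targeting hairpin shNT and received YAP/TAZ plus ESR1 cDNA (YAP/TAZ+ESR1), YAP/TAZ cDNA, ESR1 cDNA or ctrl cDNA. Cells with shNT and ctrl cDNA are called the control below. Neither hairpin was combined with YAP/TAZ or ESR1 cDNA in these arrays, and the labels name no step that selects the transfected cells. The comparisons ask how loss of LATS and expression of YAP/TAZ, ESR1 or both each stand against the control and against one another. The labels do not state whether the 3 arrays of each group go back to separate cultures, so a p-value here covers the spread among these arrays alone, which may be technical.

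LATS1 and LATS2 are the Hippo kinases that restrain the transcriptional co-activators YAP and TAZ, and ESR1 encodes estrogen receptor alpha. A cell enters mitosis when cyclin B binds CDK1 and the complex is activated, with CDC25, Polo and Aurora kinases acting in the same switch. Kinetochores, built on the centromeres, then capture spindle microtubules, and the spindle checkpoint holds back the anaphase promoting complex until every kinetochore is attached. Once the checkpoint is satisfied, CDC20 and the anaphase promoting complex destroy securin and cyclin B, separase cuts cohesin, and the central spindle guides cytokinesis. Most of these genes are transcribed in G2 and mitosis, through MuvB complexes with B-MYB and FOXM1 and through the factor NF-Y, and their messages are low in cells that do not divide.

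The deposited values are on a log2 scale, and a change of 1 is a 2-fold difference. All 39 measured members lay above the median gene, which had a mean log2 value of 6.4, and none lay under 5.21, the 30th percentile of gene means that served as the limit for dim genes. Arrays of 1 group correlated with r between 0.993 and 0.998 over all probe sets. ESR1 array 1 stood apart from ESR1 arrays 2 and 3, with root mean square differences of 0.237 and 0.241 over all genes, where other pairs of arrays within a group differed by 0.096 to 0.174. Over the members it differed from ESR1 arrays 2 and 3 by 0.347, and arrays 2 and 3 differed from each other by 0.107. Other arrays stood apart more weakly: shLATS1+2 array 3, at 0.169 and 0.170 from its group's other arrays, control array 1, at 0.174 and 0.162, and YAP/TAZ+ESR1 array 1, at 0.148 and 0.152. Over the members these differences were 0.192 and 0.211 for shLATS1+2 array 3, 0.218 and 0.226 for control array 1, and 0.216 and 0.192 for YAP/TAZ+ESR1 array 1. Counts are also given without ESR1 array 1 and shLATS1+2 array 3 together, a choice made after the data were seen, and without control array 1, which enters all comparisons with the control. LATS1 averaged 7.66 ± 0.13 in the shLATS1B arrays, 7.76 ± 0.090 in the shLATS1+2 arrays and 8.86 ± 0.086 in the control arrays (mean log2 value ± SD, n = 3 each). LATS2 averaged 7.82 ± 0.090 in the arrays labelled shLATS1+2 and 7.73 ± 0.10 in the control arrays, so its part of that label was not visible. YAP1 averaged 10.79 ± 0.029 in the arrays labelled YAP/TAZ and 10.84 ± 0.031 in the control arrays, so that cDNA was not visible at this probe set, and WWTR1 was not higher there either. ESR1 averaged 6.47 ± 0.10 in the ESR1 arrays and 5.52 ± 0.14 in the control arrays. It also averaged 6.37 ± 0.11 in the shLATS1B arrays and 6.4 ± 0.055 in the shLATS1+2 arrays, which had received no ESR1 cDNA. In the YAP/TAZ+ESR1 arrays ESR1 was at 6.03 ± 0.079, above the control and below both knockdowns, YAP1 at 10.88 ± 0.089, not called against the control, and WWTR1 was at 9.99 ± 0.080 and LATS1 at 9.33 ± 0.090, both called higher than the control. Directions below therefore follow the labels of these libraries.

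Mitotic genes were lower than in the control in all 5 other groups, and no measured member was called higher in any of them. In YAP/TAZ+ESR1 all 39 members were called lower, where 14.7% of all genes were lower and 14.7% higher. With shLATS1B 30 of 39 were lower against 11.6% of all genes (12.4% higher), and with shLATS1+2 29 of 39 against 13% of all genes (11.8% higher). In the arrays labelled YAP/TAZ alone 26 of 39 were lower against 3.84% of all genes (3.16% higher). In those labelled ESR1 alone 34 of 39 were lower against 11.9% of all genes (7.04% higher). A call is an adjusted p under 0.05 in limma, with the Benjamini-Hochberg adjustment over all 18404 genes, and all 5 comparisons share the 3 control arrays. The median log2 change over the members was -0.92 in YAP/TAZ+ESR1, -0.46 with shLATS1B, -0.38 with shLATS1+2, -0.34 with YAP/TAZ and -0.48 with ESR1, while the median over all genes lay between -0.01 and 0.00 in every one. At an unadjusted p under 0.05 limma also gave 0 members higher in each of these comparisons. Of all genes 16.3% were higher at that limit with shLATS1B, 15.7% with shLATS1+2, 18.2% in YAP/TAZ+ESR1, 7.6% with YAP/TAZ and 13.1% with ESR1. Without ESR1 array 1 and shLATS1+2 array 3 the counts of members called lower were 37 for shLATS1B, 30 for shLATS1+2, 39 for YAP/TAZ+ESR1, 34 for YAP/TAZ and 33 for ESR1, where 14.7%, 13.1%, 17.8%, 6.21% and 18.5% of all genes were lower. Without control array 1 the counts were 29, 26, 39, 23 and 32 in the same order, against 11.9%, 11.4%, 15.1%, 3.64% and 9.66% of all genes. In bulk RNA, fewer dividing cells and less of a message per dividing cell cannot be told apart.

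**Figure D1:**
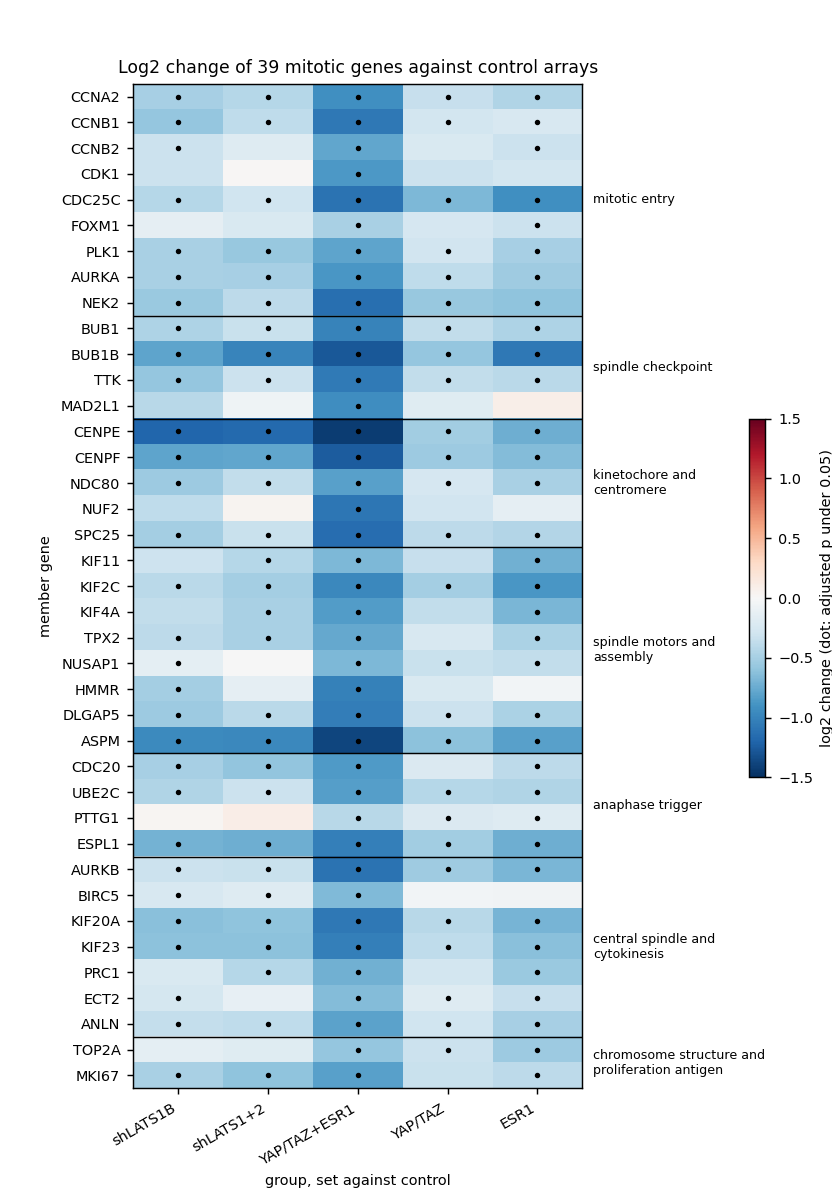
Log2 change against the control for the 39 measured members (rows, grouped by mitotic step) in the 5 other groups (columns, shLATS1B at the left), with the colour scale in log2 units and dots on changes that passed an adjusted p under 0.05. The YAP/TAZ+ESR1 column carries a dot in all 39 rows, and no dot in any column marks a higher value.

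The lowest mean change among the 5 comparisons fell in YAP/TAZ+ESR1 for 38 of the 39 members and in ESR1 for the remaining one, KIF11, where 23.7% of all genes had their lowest change in YAP/TAZ+ESR1. All 3 YAP/TAZ+ESR1 arrays read below the other 15 arrays for 29 members, against 4.14% of all genes. All 3 control arrays read above the other 15 for 29 members, against 4.45% of all genes. The median log2 value over the members lay at 9.78 to 9.89 in the shLATS1B arrays, 9.97 to 9.99 in the shLATS1+2 arrays, 9.34 to 9.42 in the YAP/TAZ+ESR1 arrays, 9.87 to 9.92 in the YAP/TAZ arrays, 9.74 to 9.81 in the ESR1 arrays and 10.15 to 10.22 in the control arrays. On this summary the control arrays were the highest and the YAP/TAZ+ESR1 arrays the lowest, with no overlap with any other group, whereas the shLATS1B arrays overlapped both single cDNA groups. The median of 39 members is the value of a single member, and the mean over the members ordered the groups in between otherwise. By that mean the YAP/TAZ arrays (9.62 to 9.64) lay above the shLATS1+2 arrays (9.58 to 9.60) and the shLATS1B arrays (9.50 to 9.54). Control arrays (9.97 to 10.02) and YAP/TAZ+ESR1 arrays (9.02 to 9.10) stayed at the ends. The first principal component of all genes, with 47.3% of the variance, divided the arrays otherwise: it set the YAP/TAZ, ESR1 and control arrays (scores from -23.0 to -10.3) apart from the knockdown and YAP/TAZ+ESR1 arrays (9.83 to 22.7). The members' medians did not follow that division, since the ESR1 arrays lay below all shLATS1+2 arrays. In all 5 comparisons, which share the control arrays, 22 members (56.4%) were called lower, against 2.05% of all genes. Of the other members 5 were called in 4 comparisons, 7 in 3, 2 in 2 and 3 in 1, against 2.75%, 4.41%, 5.55% and 9.47% of all genes.

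Promoter windows of 4 members are shown because they carry the ends of the range: CENPE, ASPM and BUB1B had the most negative mean change over shLATS1B, shLATS1+2 and YAP/TAZ+ESR1, and PTTG1 the least negative. CENPE is a kinesin that carries chromosomes to the spindle equator, ASPM works at the spindle poles, BUB1B encodes the checkpoint protein BUBR1, and PTTG1 encodes securin, the inhibitor of separase. Each window runs from 250 bases before to 50 bases after the start of the gene in RefSeq, build GRCh38.p14, and reads 5′ to 3′ along the gene. Capitals mark every match, on either strand, to the CHR motif TTTGAA, which MuvB complexes bind, or to the box CCAAT, which NF-Y binds, and a match on the opposite strand appears as the reverse complement. The window of CENPE lies at chr4:103198294-103198593 on the minus strand and holds no match. That of ASPM, at chr1:197146620-197146919 on the minus strand, holds 1 CHR and 4 CCAAT matches. For BUB1B, at chr15:40160819-40161118 on the plus strand, there is 1 CHR match. The first of the 2 windows of PTTG1, at chr5:160421605-160421904 on the plus strand, has 3 CCAAT matches, 2 of which share letters, and no CHR match.
CENPE: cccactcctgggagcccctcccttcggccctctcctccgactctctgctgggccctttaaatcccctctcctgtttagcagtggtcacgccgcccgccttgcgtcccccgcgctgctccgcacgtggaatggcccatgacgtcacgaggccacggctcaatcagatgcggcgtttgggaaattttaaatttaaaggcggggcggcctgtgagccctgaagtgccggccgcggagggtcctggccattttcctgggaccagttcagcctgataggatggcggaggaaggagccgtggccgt
ASPM: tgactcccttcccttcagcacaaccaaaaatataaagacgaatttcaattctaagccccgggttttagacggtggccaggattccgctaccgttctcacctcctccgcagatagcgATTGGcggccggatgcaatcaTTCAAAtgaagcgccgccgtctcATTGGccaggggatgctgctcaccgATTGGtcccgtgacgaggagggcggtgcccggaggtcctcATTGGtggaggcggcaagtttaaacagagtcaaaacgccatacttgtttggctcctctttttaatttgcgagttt
BUB1B: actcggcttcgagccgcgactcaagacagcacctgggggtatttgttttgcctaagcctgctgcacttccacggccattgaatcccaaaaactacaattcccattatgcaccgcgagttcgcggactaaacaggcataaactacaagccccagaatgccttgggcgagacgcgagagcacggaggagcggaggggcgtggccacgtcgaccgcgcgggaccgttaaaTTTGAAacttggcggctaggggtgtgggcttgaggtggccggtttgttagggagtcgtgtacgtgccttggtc
PTTG1: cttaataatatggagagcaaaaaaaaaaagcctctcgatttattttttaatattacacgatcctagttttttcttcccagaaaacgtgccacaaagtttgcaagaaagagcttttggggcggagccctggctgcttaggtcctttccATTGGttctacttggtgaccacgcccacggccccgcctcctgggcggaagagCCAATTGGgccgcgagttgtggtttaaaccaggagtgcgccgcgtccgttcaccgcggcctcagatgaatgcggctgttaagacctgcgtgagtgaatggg
A match describes the letters only and is not a shown binding site.

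The kinetochore members fell furthest in YAP/TAZ+ESR1, with a median log2 change of -1.14 over 5 genes, all called lower. With shLATS1B, shLATS1+2, YAP/TAZ and ESR1 the medians were -0.54, -0.36, -0.39 and -0.48, and 4 of the 5 were called lower in each. NUF2 was the member that did not pass in those 4 groups. CENPE read 6.37, 6.19 and 6.19 in the shLATS1B arrays, 6.35, 6.24 and 6.23 in the shLATS1+2 arrays, 6.05, 5.94 and 6.06 in the YAP/TAZ+ESR1 arrays, 6.70, 7.15 and 6.90 in the YAP/TAZ arrays, 7.06, 6.45 and 6.61 in the ESR1 arrays and 7.58, 7.51 and 7.24 in the control arrays. Every one of the 15 other arrays lay below the lowest control array, the YAP/TAZ+ESR1 arrays lay below all the rest, and the 6 knockdown arrays lay below all YAP/TAZ and ESR1 arrays. The log2 change of CENPE was -1.19 ± 0.13 with shLATS1B (± SE, limma adjusted p = 3.9e-06), -1.17 ± 0.13 with shLATS1+2 (4.8e-06) and -1.42 ± 0.13 in YAP/TAZ+ESR1 (3.5e-07), the largest fall of any member in each of these comparisons. It was -0.52 ± 0.13 with YAP/TAZ (limma adjusted p = 0.024) and -0.74 ± 0.13 with ESR1 (0.00093). The YAP/TAZ call was lost without control array 1 or 2 or YAP/TAZ array 1 or 3, with adjusted p of 0.090, 0.094, 0.132 and 0.077.

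CENPF, a large kinetochore protein that accumulates in G2, read 9.11, 8.85 and 8.89 in the shLATS1B arrays, 8.86, 9.0 and 9.01 in the shLATS1+2 arrays, 8.56, 8.34 and 8.57 in the YAP/TAZ+ESR1 arrays, 9.04, 9.35 and 9.18 in the YAP/TAZ arrays, 9.34, 8.94 and 8.99 in the ESR1 arrays and 9.89, 9.64 and 9.68 in the control arrays. The YAP/TAZ+ESR1 arrays were the lowest and the control arrays the highest without overlap, and the 4 groups between them overlapped. CENPF changed on the log2 scale by -0.79 ± 0.11 with shLATS1B, -0.78 ± 0.11 with shLATS1+2, -1.24 ± 0.11 in YAP/TAZ+ESR1, -0.55 ± 0.11 with YAP/TAZ and -0.65 ± 0.11 with ESR1 (± SE), with limma adjusted p of 4.3e-05, 4.7e-05, 1.8e-07, 0.0049 and 0.00057.

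NUF2 and SPC25 belong, with NDC80, to the complex that holds the microtubule end at the outer kinetochore. NUF2 read 9.04, 8.87 and 8.99 in the shLATS1B arrays, 9.28, 9.25 and 9.66 in the shLATS1+2 arrays, 8.52, 8.05 and 8.23 in the YAP/TAZ+ESR1 arrays, 9.09, 9.03 and 9.06 in the YAP/TAZ arrays, 8.81, 9.48 and 9.35 in the ESR1 arrays and 9.05, 9.51 and 9.49 in the control arrays. The YAP/TAZ+ESR1 arrays stood clear of the rest and the shLATS1B arrays lay just below the control arrays, while control array 1 and ESR1 array 1 were the low ones of their groups and shLATS1+2 array 3 the high one. Its log2 change was -1.08 ± 0.16 in YAP/TAZ+ESR1 (limma adjusted p = 6.9e-05), and -0.38 ± 0.16 with shLATS1B, 0.05 ± 0.16 with shLATS1+2, -0.29 ± 0.16 with YAP/TAZ and -0.14 ± 0.16 with ESR1, none of which passed. The shLATS1B change passed with adjusted p = 0.030 without control array 1 and 0.037 without ESR1 array 1.

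SPC25 read 7.91, 7.99 and 8.10 in the shLATS1B arrays, 8.12, 8.15 and 8.26 in the shLATS1+2 arrays, 7.54, 7.18 and 7.41 in the YAP/TAZ+ESR1 arrays, 8.07, 8.13 and 8.15 in the YAP/TAZ arrays, 8.0, 8.01 and 8.23 in the ESR1 arrays and 8.31, 8.67 and 8.55 in the control arrays. All control arrays were above, and all YAP/TAZ+ESR1 arrays below, every other array. SPC25 changed by -0.51 ± 0.097 with shLATS1B, -0.33 ± 0.097 with shLATS1+2, -1.14 ± 0.097 in YAP/TAZ+ESR1, -0.39 ± 0.097 with YAP/TAZ and -0.44 ± 0.097 with ESR1 on the log2 scale (± SE), with limma adjusted p of 0.00068, 0.017, 1e-07, 0.018 and 0.0043. Leaving out shLATS1+2 array 1 or 2 or control array 2 or 3 ended its shLATS1+2 call (adjusted p 0.054 to 0.097), and leaving out YAP/TAZ array 1 or 2 or control array 2 or 3 ended its YAP/TAZ call (0.057 to 0.108). Its ESR1 call was lost with only the groups compared in the fit (0.065). NDC80 itself was lower in all 5 comparisons, by -0.81 ± 0.064 in YAP/TAZ+ESR1 on the log2 scale (limma adjusted p = 4.4e-08).

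**Figure D2:**
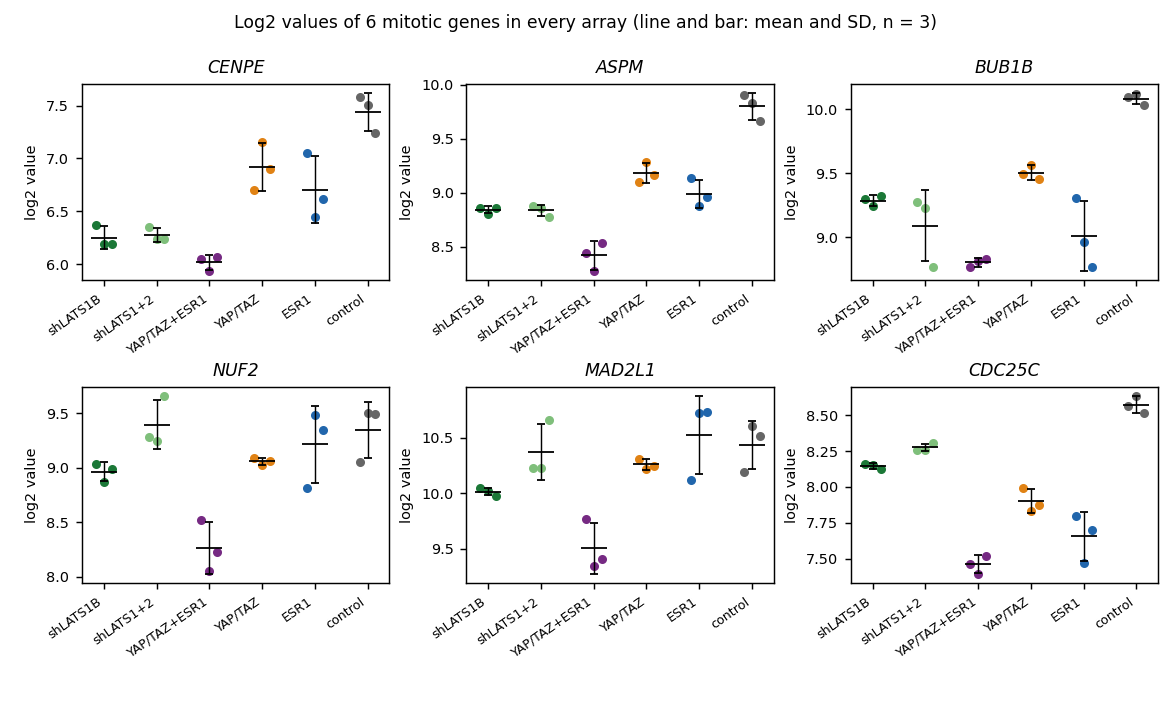
Log2 values of 6 mitotic genes in every array (points), with the mean and SD of the 3 arrays of each group, in the order shLATS1B, shLATS1+2, YAP/TAZ+ESR1, YAP/TAZ, ESR1 and control. CENPE, ASPM, BUB1B and CDC25C are lower than the control in every array of the 5 other groups, whereas NUF2 and MAD2L1 are clearly lower in the YAP/TAZ+ESR1 arrays, and ESR1 array 1 sits below its group in both.

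The 4 spindle checkpoint members had a median log2 change of -1.03 in YAP/TAZ+ESR1, where all passed. Their medians were -0.52 with shLATS1B, -0.33 with shLATS1+2, -0.37 with YAP/TAZ and -0.44 with ESR1, and in each of these BUB1, BUB1B and TTK were lower while MAD2L1 did not pass. BUB1 and TTK (also called MPS1) are the kinases that recruit checkpoint proteins to unattached kinetochores, and in YAP/TAZ+ESR1 they changed by -1.0 ± 0.055 and -1.06 ± 0.094 on the log2 scale. BUB1B read 9.30, 9.24 and 9.32 in the shLATS1B arrays, 9.27, 9.23 and 8.77 in the shLATS1+2 arrays, 8.77, 8.82 and 8.83 in the YAP/TAZ+ESR1 arrays, 9.49, 9.57 and 9.46 in the YAP/TAZ arrays, 9.30, 8.96 and 8.77 in the ESR1 arrays and 10.10, 10.12 and 10.03 in the control arrays. All control arrays were the highest, and single arrays of shLATS1+2 and ESR1, array 3 in both, came down to the level of the YAP/TAZ+ESR1 arrays. The log2 change of BUB1B was -0.79 ± 0.12 with shLATS1B, -0.99 ± 0.12 with shLATS1+2, -1.28 ± 0.12 in YAP/TAZ+ESR1, -0.58 ± 0.12 with YAP/TAZ and -1.07 ± 0.12 with ESR1 (± SE), with limma adjusted p of 8.9e-05, 8.7e-06, 3.5e-07, 0.006 and 9.9e-06. It had the largest fall of any member with ESR1 alone.

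MAD2L1 encodes MAD2, the checkpoint protein that binds CDC20. It read 10.04, 10.02 and 9.98 in the shLATS1B arrays, 10.23, 10.22 and 10.66 in the shLATS1+2 arrays, 9.77, 9.34 and 9.41 in the YAP/TAZ+ESR1 arrays, 10.31, 10.22 and 10.25 in the YAP/TAZ arrays, 10.12, 10.72 and 10.73 in the ESR1 arrays and 10.19, 10.60 and 10.51 in the control arrays. The YAP/TAZ+ESR1 arrays were the lowest and the shLATS1B arrays the next lowest, and the other 4 groups overlapped, with ESR1 array 1 about 0.6 below ESR1 arrays 2 and 3. Its log2 change was -0.93 ± 0.16 in YAP/TAZ+ESR1 (limma adjusted p = 0.00022). It was -0.42 ± 0.16 with shLATS1B (adjusted p = 0.067 in limma), -0.07 ± 0.16 with shLATS1+2 (0.84), -0.18 ± 0.16 with YAP/TAZ (0.68) and 0.09 ± 0.16 with ESR1 (0.78). The shLATS1B change passed, among other settings, without ESR1 array 1 (0.016), without control array 1 (0.027) and without shLATS1+2 array 3 (0.045).

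Of the 9 mitotic entry members all were lower in YAP/TAZ+ESR1, with a median log2 change of -0.88. With shLATS1B 7 were lower (median -0.49), with shLATS1+2 6 (-0.38), with YAP/TAZ 6 (-0.33) and with ESR1 8 (-0.45). CCNB1, which encodes cyclin B1, read 10.12, 10.01 and 10.13 in the shLATS1B arrays, 10.28, 10.22 and 10.37 in the shLATS1+2 arrays, 9.74, 9.52 and 9.54 in the YAP/TAZ+ESR1 arrays, 10.44, 10.32 and 10.45 in the YAP/TAZ arrays, 10.35, 10.50 and 10.46 in the ESR1 arrays and 10.58, 10.72 and 10.73 in the control arrays. The control arrays were the highest and the YAP/TAZ+ESR1 arrays the lowest without overlap, and the shLATS1B arrays lay below those of shLATS1+2 and of both single cDNAs. CCNB1 changed on the log2 scale by -0.59 ± 0.067 with shLATS1B, -0.38 ± 0.067 with shLATS1+2, -1.07 ± 0.067 in YAP/TAZ+ESR1, -0.27 ± 0.067 with YAP/TAZ and -0.24 ± 0.067 with ESR1 (± SE), with limma adjusted p of 4.8e-06, 0.00036, 2.4e-09, 0.018 and 0.019. The YAP/TAZ call was lost without YAP/TAZ array 2 or control array 2 or 3 (adjusted p 0.079 to 0.103), and the ESR1 call without ESR1 array 1 or control array 2 or 3 (0.051 to 0.072) and with only the groups compared in the fit (0.097).

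CDK1, the partner kinase of cyclin B1, read 9.76, 9.65 and 9.77 in the shLATS1B arrays, 9.98, 9.997 and 10.24 in the shLATS1+2 arrays, 9.50, 8.97 and 9.11 in the YAP/TAZ+ESR1 arrays, 9.77, 9.70 and 9.71 in the YAP/TAZ arrays, 9.40, 9.95 and 9.97 in the ESR1 arrays and 9.82, 10.18 and 10.16 in the control arrays. Its YAP/TAZ+ESR1 arrays overlapped those of ESR1 through ESR1 array 1, and control array 1 was the low one of its group. CDK1 changed by -0.86 ± 0.15 on the log2 scale in YAP/TAZ+ESR1 (limma adjusted p = 0.00023), and its changes of -0.32 ± 0.15 with shLATS1B, 0.02 ± 0.15 with shLATS1+2, -0.33 ± 0.15 with YAP/TAZ and -0.28 ± 0.15 with ESR1 did not pass. The shLATS1B change passed without ESR1 array 1 (adjusted p = 0.048) and with only the groups compared in the fit (0.032).

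CDC25C encodes the phosphatase that activates CDK1. It read 8.16, 8.15 and 8.12 in the shLATS1B arrays, 8.26, 8.26 and 8.31 in the shLATS1+2 arrays, 7.46, 7.39 and 7.52 in the YAP/TAZ+ESR1 arrays, 7.99, 7.83 and 7.87 in the YAP/TAZ arrays, 7.80, 7.47 and 7.70 in the ESR1 arrays and 8.57, 8.63 and 8.52 in the control arrays. No array of any other group reached the control arrays, and the shLATS1B and shLATS1+2 arrays lay above all arrays that had received YAP/TAZ or ESR1 cDNA. The log2 change was -0.43 ± 0.068 with shLATS1B, -0.30 ± 0.068 with shLATS1+2, -1.11 ± 0.068 in YAP/TAZ+ESR1, -0.67 ± 0.068 with YAP/TAZ and -0.92 ± 0.068 with ESR1 (± SE), with limma adjusted p of 0.00015, 0.0036, 1.9e-09, 6.1e-06 and 8e-08. NEK2, a kinase that separates the centrosomes, read 9.89, 9.82 and 9.78 in the shLATS1B arrays, 9.95, 9.93 and 10.12 in the shLATS1+2 arrays, 9.42, 9.26 and 9.09 in the YAP/TAZ+ESR1 arrays, 9.90, 9.68 and 9.88 in the YAP/TAZ arrays, 9.63, 9.84 and 9.90 in the ESR1 arrays and 10.22, 10.51 and 10.44 in the control arrays. Its control arrays were the highest and its YAP/TAZ+ESR1 arrays the lowest of the 18, with no overlap. NEK2 changed on the log2 scale by -0.56 ± 0.096 with shLATS1B, -0.39 ± 0.096 with shLATS1+2, -1.13 ± 0.096 in YAP/TAZ+ESR1, -0.57 ± 0.096 with YAP/TAZ and -0.60 ± 0.096 with ESR1 (± SE), with limma adjusted p of 0.00032, 0.0061, 1.1e-07, 0.0012 and 0.00035. Among the other entry members, the Polo kinase PLK1, the Aurora kinase AURKA and the cyclin CCNA2 were lower in all 5 comparisons, by -0.79 ± 0.071, -0.88 ± 0.059 and -0.92 ± 0.042 in YAP/TAZ+ESR1. The transcription factor FOXM1 had the smallest fall of the entry members there, -0.49 ± 0.10 (limma adjusted p = 0.0014), and its changes of -0.14 ± 0.10 with shLATS1B and -0.22 ± 0.10 with shLATS1+2 did not pass.

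The 8 spindle motors and assembly factors were all lower in YAP/TAZ+ESR1, with a median log2 change of -0.90. Their medians were -0.40 with shLATS1B (6 lower), -0.45 with shLATS1+2 (6 lower), -0.34 with YAP/TAZ (4 lower) and -0.58 with ESR1 (7 lower), so that with ESR1 this step had the most negative median of the 7. ASPM read 8.86, 8.80 and 8.86 in the shLATS1B arrays, 8.88, 8.86 and 8.77 in the shLATS1+2 arrays, 8.44, 8.28 and 8.54 in the YAP/TAZ+ESR1 arrays, 9.10, 9.28 and 9.16 in the YAP/TAZ arrays, 9.13, 8.87 and 8.96 in the ESR1 arrays and 9.91, 9.83 and 9.66 in the control arrays. The control arrays were the highest and the YAP/TAZ+ESR1 arrays the lowest, and the knockdown arrays overlapped each other and lay below all YAP/TAZ arrays. The log2 change of ASPM was -0.96 ± 0.079 with shLATS1B, -0.96 ± 0.079 with shLATS1+2, -1.38 ± 0.079 in YAP/TAZ+ESR1, -0.62 ± 0.079 with YAP/TAZ and -0.81 ± 0.079 with ESR1 (± SE), with limma adjusted p of 1.1e-07, 1e-07, 8.7e-10, 8.1e-05 and 2.1e-06.

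KIF2C encodes MCAK, a kinesin that takes microtubule ends apart. It read 8.08, 8.21 and 8.27 in the shLATS1B arrays, 8.19, 8.06 and 7.99 in the shLATS1+2 arrays, 7.53, 7.65 and 7.68 in the YAP/TAZ+ESR1 arrays, 8.17, 7.96 and 8.13 in the YAP/TAZ arrays, 8.05, 7.43 and 7.69 in the ESR1 arrays and 8.80, 8.53 and 8.45 in the control arrays. Its YAP/TAZ+ESR1 arrays overlapped the ESR1 arrays, of which array 1 was the high one, and all arrays of the 5 groups lay below the control. The log2 change was -0.40 ± 0.12 with shLATS1B, -0.51 ± 0.12 with shLATS1+2, -0.97 ± 0.12 in YAP/TAZ+ESR1, -0.51 ± 0.12 with YAP/TAZ and -0.87 ± 0.12 with ESR1 (± SE), with limma adjusted p of 0.022, 0.0046, 9.7e-06, 0.016 and 9.5e-05. Its shLATS1B call was lost without shLATS1B array 1 or 2 or control array 1 (adjusted p 0.051 to 0.105), and its YAP/TAZ call without YAP/TAZ array 2 (0.088) or control array 1 (0.075).

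HMMR encodes a microtubule-binding receptor for hyaluronan that helps to focus the spindle poles. It read 8.80, 8.73 and 8.69 in the shLATS1B arrays, 9.01, 9.03 and 9.31 in the shLATS1+2 arrays, 8.49, 8.05 and 8.18 in the YAP/TAZ+ESR1 arrays, 9.08, 8.99 and 9.01 in the YAP/TAZ arrays, 8.88, 9.28 and 9.46 in the ESR1 arrays and 8.97, 9.36 and 9.42 in the control arrays. Its YAP/TAZ+ESR1 arrays were the lowest, the shLATS1B arrays came next, and the other 4 groups overlapped, with control array 1 and ESR1 array 1 the low ones of their groups. It changed by -1.01 ± 0.14 on the log2 scale in YAP/TAZ+ESR1 (limma adjusted p = 3.4e-05) and by -0.51 ± 0.14 with shLATS1B (0.014). With shLATS1+2, YAP/TAZ and ESR1 its changes of -0.14 ± 0.14, -0.23 ± 0.14 and -0.05 ± 0.14 did not pass. The shLATS1B call was lost without shLATS1B array 3 (adjusted p = 0.051), control array 2 (0.063) or control array 3 (0.072). KIF11, the bipolar kinesin that pushes the spindle poles apart, changed by -0.67 ± 0.14 in YAP/TAZ+ESR1 (limma adjusted p = 0.001) and -0.72 ± 0.14 with ESR1 (0.0012), where array 1 read 9.71 and arrays 2 and 3 read 9.12 and 9.08. KIF4A, a chromosome-bound kinesin, has a near-identical retrocopy, KIF4B, so its value may hold signal from both.

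Of the 4 genes of the anaphase trigger, all were lower in YAP/TAZ+ESR1 (median log2 change -0.84) and with ESR1 (-0.42), and 3 of 4 with shLATS1B (-0.48), shLATS1+2 (-0.46) and YAP/TAZ (-0.32). ESPL1, which encodes separase, read 7.05, 7.09 and 7.03 in the shLATS1B arrays, 7.10, 7.11 and 6.87 in the shLATS1+2 arrays, 6.52, 6.84 and 6.87 in the YAP/TAZ+ESR1 arrays, 7.21, 7.29 and 7.22 in the YAP/TAZ arrays, 7.22, 6.99 and 6.88 in the ESR1 arrays and 7.97, 7.66 and 7.66 in the control arrays. The control arrays were above all others, and the highest YAP/TAZ+ESR1 array and the lowest shLATS1+2 array were both at 6.87. Its log2 change was -0.71 ± 0.10 with shLATS1B, -0.74 ± 0.10 with shLATS1+2, -1.02 ± 0.10 in YAP/TAZ+ESR1, -0.52 ± 0.10 with YAP/TAZ and -0.74 ± 0.10 with ESR1 (± SE), with limma adjusted p of 7.4e-05, 4.8e-05, 9.8e-07, 0.0045 and 0.00011. PTTG1, which encodes the securin that holds separase inactive, read 10.20, 10.13 and 10.14 in the shLATS1B arrays, 10.20, 10.20 and 10.28 in the shLATS1+2 arrays, 9.78, 9.70 and 9.67 in the YAP/TAZ+ESR1 arrays, 9.997, 9.87 and 9.87 in the YAP/TAZ arrays, 9.81, 9.95 and 10.05 in the ESR1 arrays and 10.08, 10.13 and 10.17 in the control arrays. Here the knockdown arrays overlapped or exceeded the control arrays, and the 9 arrays with YAP/TAZ or ESR1 cDNA lay below the control. PTTG1 had the smallest fall of any member in YAP/TAZ+ESR1, -0.41 ± 0.058 (limma adjusted p = 3.5e-05), and its changes of 0.03 ± 0.058 with shLATS1B (0.8) and 0.10 ± 0.058 with shLATS1+2 (0.26) did not pass. It was lower with YAP/TAZ, by -0.21 ± 0.058 (limma adjusted p = 0.035), and with ESR1, by -0.19 ± 0.058 (0.032). CDC20, the activator of the anaphase promoting complex, and UBE2C, its ubiquitin-conjugating enzyme, changed by -0.85 ± 0.070 and -0.83 ± 0.041 in YAP/TAZ+ESR1.

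The 7 members of the central spindle and cytokinesis were all lower in YAP/TAZ+ESR1, with a median log2 change of -0.80. With shLATS1B 6 were lower (-0.32), with shLATS1+2 6 (-0.38), with YAP/TAZ 5 (-0.30) and with ESR1 6 (-0.56). AURKB, the kinase of the chromosomal passenger complex, read 10.22, 10.08 and 10.04 in the shLATS1B arrays, 10.08, 10.16 and 10.07 in the shLATS1+2 arrays, 9.27, 9.34 and 9.36 in the YAP/TAZ+ESR1 arrays, 9.92, 9.87 and 9.93 in the YAP/TAZ arrays, 9.89, 9.64 and 9.71 in the ESR1 arrays and 10.38, 10.46 and 10.46 in the control arrays. The control arrays were the highest and the YAP/TAZ+ESR1 arrays the lowest, and the knockdown arrays lay above all arrays with YAP/TAZ or ESR1 cDNA. AURKB changed on the log2 scale by -0.32 ± 0.061 with shLATS1B, -0.33 ± 0.061 with shLATS1+2, -1.11 ± 0.061 in YAP/TAZ+ESR1, -0.53 ± 0.061 with YAP/TAZ and -0.69 ± 0.061 with ESR1 (± SE), with limma adjusted p of 0.00074, 0.00055, 5.2e-10, 2.5e-05 and 7.3e-07.

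BIRC5 encodes survivin, a further subunit of the passenger complex. It read 8.75, 8.73 and 8.64 in the shLATS1B arrays, 8.66, 8.73 and 8.90 in the shLATS1+2 arrays, 8.24, 8.26 and 8.39 in the YAP/TAZ+ESR1 arrays, 8.94, 8.91 and 8.87 in the YAP/TAZ arrays, 8.86, 8.88 and 8.94 in the ESR1 arrays and 8.88, 8.96 and 9.01 in the control arrays. The YAP/TAZ+ESR1 arrays were the only group below all others, and the YAP/TAZ and ESR1 arrays overlapped the control. It changed by -0.24 ± 0.061 with shLATS1B, -0.19 ± 0.061 with shLATS1+2 and -0.66 ± 0.061 in YAP/TAZ+ESR1 on the log2 scale (limma adjusted p = 0.0067, 0.03 and 2.9e-07), and its changes of -0.04 ± 0.061 with YAP/TAZ and -0.06 ± 0.061 with ESR1 did not pass. The shLATS1+2 call was lost without control array 2 or 3 or shLATS1+2 array 1 or 2 (adjusted p 0.076 to 0.150), with quantile normalization (0.136), with trend and robust moderation (0.055) and with only the groups compared in the fit (0.117). A second probe set of BIRC5 showed a smaller log2 change of -0.37 in YAP/TAZ+ESR1 (limma adjusted p = 0.0077). With shLATS1B and shLATS1+2 the second probe set had changes of -0.17 and -0.19 that did not pass (limma adjusted p = 0.24 and 0.19).

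KIF20A, a kinesin that brings the passenger complex to the central spindle, read 10.37, 10.40 and 10.43 in the shLATS1B arrays, 10.49, 10.51 and 10.28 in the shLATS1+2 arrays, 9.94, 9.87 and 10.05 in the YAP/TAZ+ESR1 arrays, 10.62, 10.61 and 10.63 in the YAP/TAZ arrays, 10.54, 10.26 and 10.19 in the ESR1 arrays and 11.14, 11.02 and 10.93 in the control arrays. Control arrays were highest and YAP/TAZ+ESR1 arrays lowest, with no overlap, and the YAP/TAZ arrays lay above both knockdowns and ESR1. KIF20A changed on the log2 scale by -0.63 ± 0.083 with shLATS1B, -0.60 ± 0.083 with shLATS1+2, -1.08 ± 0.083 in YAP/TAZ+ESR1, -0.41 ± 0.083 with YAP/TAZ and -0.70 ± 0.083 with ESR1 (± SE), with limma adjusted p of 2.2e-05, 3.5e-05, 3.3e-08, 0.0049 and 1.8e-05. KIF23, ECT2 and ANLN, which build the midzone and the contractile ring, changed by -1.03 ± 0.075, -0.65 ± 0.046 and -0.80 ± 0.057 in YAP/TAZ+ESR1.

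The remaining members are MKI67, which encodes the proliferation antigen Ki-67 that coats mitotic chromosomes, and TOP2A, the topoisomerase that untangles sister chromatids. MKI67 read 8.91, 8.85 and 9.02 in the shLATS1B arrays, 8.83, 8.82 and 8.79 in the shLATS1+2 arrays, 8.49, 8.62 and 8.70 in the YAP/TAZ+ESR1 arrays, 8.90, 9.25 and 9.10 in the YAP/TAZ arrays, 9.33, 8.91 and 8.83 in the ESR1 arrays and 9.59, 9.23 and 9.42 in the control arrays. The knockdown and YAP/TAZ+ESR1 arrays lay below the control arrays, and the YAP/TAZ and ESR1 arrays overlapped them. MKI67 changed on the log2 scale by -0.49 ± 0.12 with shLATS1B, -0.60 ± 0.12 with shLATS1+2, -0.81 ± 0.12 in YAP/TAZ+ESR1, -0.33 ± 0.12 with YAP/TAZ and -0.39 ± 0.12 with ESR1 (± SE), with limma adjusted p of 0.0052, 0.001, 4.5e-05, 0.12 and 0.028. Its ESR1 call was lost without ESR1 array 2 or 3 or control array 1 or 3 (adjusted p 0.064 to 0.146) and with only the groups compared in the fit (0.181), and its YAP/TAZ change passed without ESR1 array 1 (0.027). TOP2A changed by -0.58 ± 0.073 in YAP/TAZ+ESR1 (limma adjusted p = 9.9e-06), -0.32 ± 0.073 with YAP/TAZ (0.011) and -0.54 ± 0.073 with ESR1 (6.3e-05), while -0.15 ± 0.073 with shLATS1B and -0.18 ± 0.073 with shLATS1+2 did not pass.

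**Figure D3:**
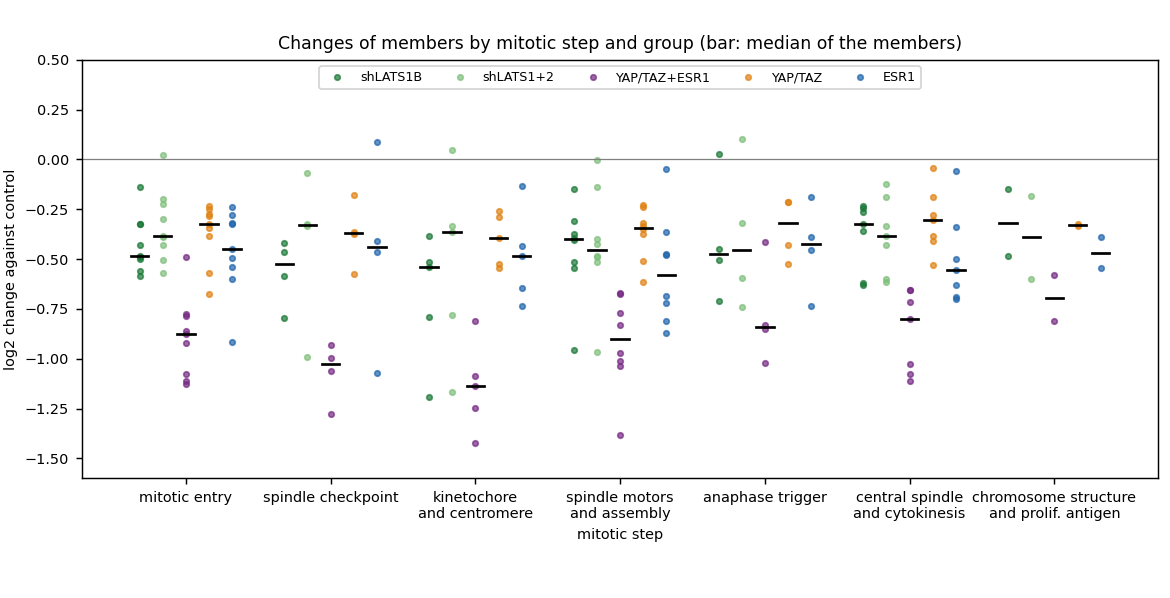
Log2 change against the control (vertical axis) of each measured member (points), by mitotic step, for shLATS1B, shLATS1+2, YAP/TAZ+ESR1, YAP/TAZ and ESR1, with black bars at the median of a step. The YAP/TAZ+ESR1 medians run from -1.14 for the kinetochore to -0.69 for MKI67 and TOP2A, and lie below those of the other groups in every step.

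The order of the steps differed between groups. In YAP/TAZ+ESR1 it ran, from the most negative median, kinetochore (-1.14), checkpoint (-1.03), spindle motors (-0.90), entry (-0.88), anaphase trigger (-0.84), cytokinesis (-0.80) and MKI67 with TOP2A (-0.69). The shLATS1B arrays also had kinetochore (-0.54) and checkpoint (-0.52) first. With shLATS1+2 the anaphase trigger (-0.46) and the spindle motors (-0.45) came first and the checkpoint last (-0.33). ESR1 had the spindle motors (-0.58) and cytokinesis (-0.56) first, and YAP/TAZ had all steps within -0.39 to -0.30. In YAP/TAZ+ESR1 the ranges of the steps overlapped, except that MKI67 and TOP2A, at -0.81 and -0.58, lay above all checkpoint members (-1.28 to -0.93) and, by under 0.01, above all kinetochore members. These orders are a description of medians over 2 to 9 genes and were not tested.

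No member passed the test between the 2 knockdowns. In shLATS1+2 minus shLATS1B limma called 0 of 39 members in either direction, against 0.179% of all genes lower and 0.141% higher. At an unadjusted p under 0.05 there were 12 members, all higher with shLATS1+2, where 5.04% of all genes were higher and 6.56% lower, and the smallest adjusted p of a member was 0.272. The differences ran from -0.20 for BUB1B to 0.43 for NUF2 on the log2 scale, with 95% intervals of ± 0.087 to ± 0.35, so differences of that size remain possible. Against the control, 26 members were lower in both knockdowns, where 11.6% of all genes were lower with shLATS1B and 13% with shLATS1+2. The share of all genes lower in both at once was not counted, nor were shares for the divisions that follow. The 26 members therefore have no direct share of all genes beside them. A further 4 passed with shLATS1B and not with shLATS1+2 (CCNB2, ECT2, HMMR and NUSAP1), 3 passed with shLATS1+2 and not with shLATS1B (KIF11, KIF4A and PRC1), and 6 passed in neither (CDK1, FOXM1, MAD2L1, NUF2, PTTG1 and TOP2A). These divisions follow from calls against the control and do not show that a member differed between the knockdowns.

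Set directly against YAP/TAZ+ESR1, the knockdowns held higher levels of most members. In shLATS1B minus YAP/TAZ+ESR1 34 of 39 were higher, against 5.3% of all genes, with a median log2 difference of 0.45. For shLATS1+2 minus YAP/TAZ+ESR1 30 of 39 were higher, against 9.62% of all genes, with a median of 0.47. Of all genes 5.81% and 10.2% were lower in these comparisons. No member was lower in either, at an adjusted or an unadjusted limma p under 0.05. At the unadjusted one 10.4% and 15.3% of all genes were lower. The largest differences were 0.79 ± 0.061 for AURKB and 0.70 ± 0.16 for NUF2 in shLATS1B minus YAP/TAZ+ESR1 (limma adjusted p = 2.1e-07 and 0.0092), and 1.13 ± 0.16 for NUF2 and 0.88 ± 0.15 for CDK1 in shLATS1+2 minus YAP/TAZ+ESR1 (0.00015 and 0.00054). CENPE, ESPL1, KIF11, KIF4A and MKI67 did not pass in either comparison. The log2 difference of CENPE, the member that fell furthest, was 0.23 ± 0.13 in shLATS1B minus YAP/TAZ+ESR1 and 0.26 ± 0.13 in shLATS1+2 minus YAP/TAZ+ESR1 (limma adjusted p = 0.36 and 0.22).

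YAP/TAZ+ESR1 also lay below each single cDNA, in comparisons added after the data were seen. In YAP/TAZ+ESR1 minus YAP/TAZ 37 of 39 members were lower, against 10.5% of all genes, with a median log2 difference of -0.55, and FOXM1 and KIF11 did not pass. In YAP/TAZ+ESR1 minus ESR1 31 were lower, against 12.9% of all genes, with a median of -0.40. The 8 that did not pass in the second were BUB1B, FOXM1, KIF11, KIF2C, KIF4A, PRC1, TOP2A and TPX2. No member was called higher in either comparison, where 12.3% and 16.2% of all genes were. At an unadjusted p under 0.05 limma gave 0 members higher in both, where 16.3% and 20.2% of all genes were higher. Without ESR1 array 1 and shLATS1+2 array 3, 28 members were lower and 1 was higher in YAP/TAZ+ESR1 minus ESR1, against 16.2% and 22% of all genes.

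For most members the fall in YAP/TAZ+ESR1 was not distinguishable from the sum of the log2 changes of the single cDNAs. The interaction, YAP/TAZ+ESR1 minus ESR1 less YAP/TAZ minus control, called 4 members lower (10.3%) and 1 higher (2.56%), against 7.68% of all genes lower and 11.4% higher, which is near the share of all genes for lower calls and below it for higher ones. The median over the members was -0.01, and 34 did not pass, with 95% intervals of ± 0.12 to ± 0.49. Those below 0 were MAD2L1 with -0.84 ± 0.22 (limma adjusted p = 0.015), HMMR with -0.74 ± 0.20 (0.017), CCNB1 with -0.56 ± 0.095 (0.00052) and BIRC5 with -0.56 ± 0.086 (0.00022). In these 4, the level in YAP/TAZ+ESR1 was lower than the control by more than the sum of the single changes. CDC25C, with 0.48 ± 0.096 (limma adjusted p = 0.0022), fell by less than that sum. The HMMR call was lost without YAP/TAZ+ESR1 array 2 (adjusted p = 0.053) or ESR1 array 3 (0.051), and the second probe set of BIRC5 gave an interaction of 0.0019 (limma adjusted p = 0.996). Without ESR1 array 1 and shLATS1+2 array 3, 6 members were called lower and 6 higher in the interaction, near the 13.4% and 19% of all genes called there. Without YAP/TAZ+ESR1 array 1, 7 were called lower (8.56% of all genes), and without ESR1 array 1, 5 were called higher (18% of all genes). The cDNA genes were not matched across these groups. WWTR1, YAP1 and ESR1 themselves had interactions of 0.92, 0.37 and -0.65 (limma adjusted p = 7.4e-05, 0.021 and 0.00076).

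**Figure D4:**
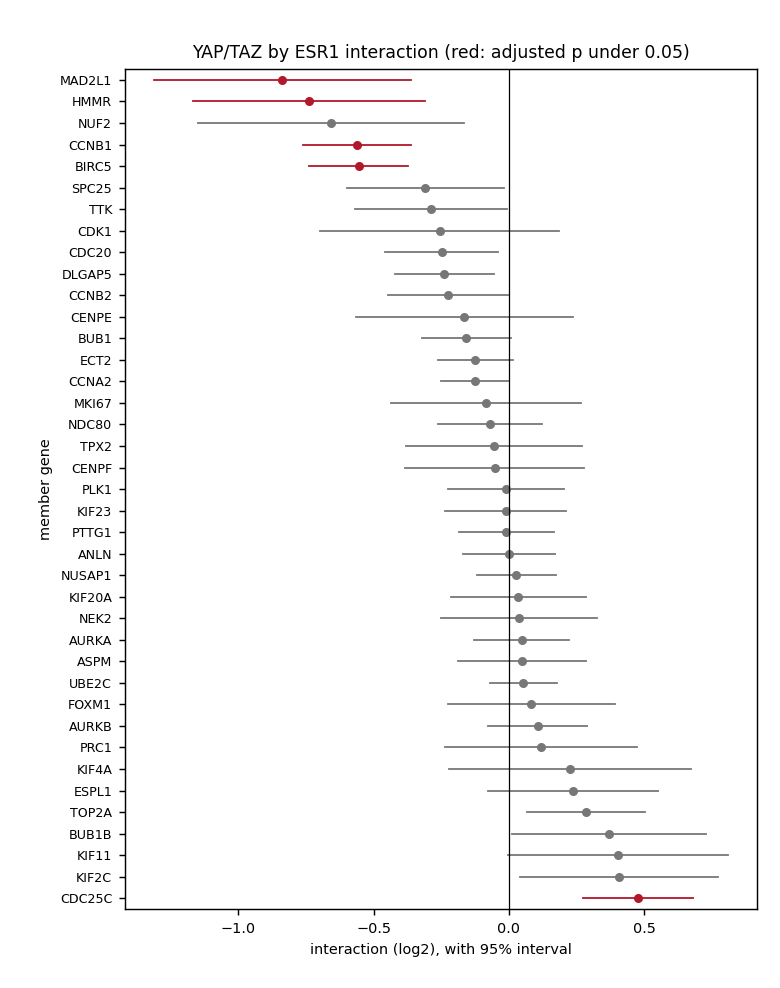
Interaction between YAP/TAZ and ESR1 cDNA on the log2 scale (horizontal axis) for each measured member (rows), with 95% intervals and with the members at an adjusted p under 0.05 in red. MAD2L1, HMMR, CCNB1 and BIRC5 lie below 0 and CDC25C above, and the other 34 are grey.

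Spread within groups was uneven over the members. CDK1, MAD2L1, NUF2 and HMMR were singled out after their values were seen. In all of them control array 1 and ESR1 array 1 were the lowest of their groups. In the same members shLATS1+2 array 3 and YAP/TAZ+ESR1 array 1 were the highest of theirs. This order of arrays was not particular to them, since CCNB1, CCNB2, NEK2, TTK, SPC25 and PTTG1 had it too. Among the latter, CCNB1, NEK2, SPC25 and PTTG1 were called lower with both single cDNAs. CDK1, MAD2L1, NUF2 and HMMR passed with neither single cDNA. Their standard errors of 0.15, 0.16, 0.16 and 0.14 compare with 0.079 for the median member. The part of array differences in these calls was not tested.

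The other genes of cell division moved with the members to different degrees, by lists written with earlier results of these data known. Of all genes, 11.6% were lower with shLATS1B, 13% with shLATS1+2, 14.7% in YAP/TAZ+ESR1, 3.84% with YAP/TAZ and 11.9% with ESR1. In the same order 12.4%, 11.8%, 14.7%, 3.16% and 7.04% were higher. The counts of the lists here and below stand beside these shares. Of 30 further spindle and cytokinesis genes, 26 were lower with shLATS1B, 25 with shLATS1+2, 29 in YAP/TAZ+ESR1, 21 with YAP/TAZ and 25 with ESR1, with none higher, and the median log2 changes were -0.43, -0.46, -0.81, -0.36 and -0.48. The kinesins KIF14 and KIF15 changed most there, by -1.36 ± 0.13 and -1.35 ± 0.10 in YAP/TAZ+ESR1 (limma adjusted p = 6.8e-07 and 2.1e-08). Of 28 further kinetochore and centromere genes, 16 were lower with shLATS1B, 14 with shLATS1+2, 23 in YAP/TAZ+ESR1, 13 with YAP/TAZ and 14 with ESR1, and 2 were higher with shLATS1+2 and 1 with ESR1. SGO2, which protects centromeric cohesin, and KNL1, the scaffold for BUB1, changed by -1.23 ± 0.062 and -1.17 ± 0.093 in YAP/TAZ+ESR1 (2.1e-10 and 5.1e-08 in limma after adjustment). Genes of DNA replication and S phase moved less: of 24, 7 were lower with shLATS1B, 8 with shLATS1+2, 17 in YAP/TAZ+ESR1, 4 with YAP/TAZ and 10 with ESR1, and 3 were higher with shLATS1+2, 1 with YAP/TAZ and 3 with ESR1. Their median log2 change was -0.13, -0.20, -0.48, -0.14 and -0.23 in that order of groups. CDC45, a subunit of the replicative helicase, was lower in all 5 comparisons, by -0.96 ± 0.055 in YAP/TAZ+ESR1 (limma adjusted p = 8.4e-10).

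Of 17 condensin and cohesin genes, 11 were lower in YAP/TAZ+ESR1 and 15 with ESR1 alone, with median log2 changes of -0.49 and -0.51, a difference that was not tested. With shLATS1B 6, with shLATS1+2 8 and with YAP/TAZ 3 of them were lower. SMC2, a condensin core subunit, changed by -0.72 ± 0.14 in YAP/TAZ+ESR1 and -0.72 ± 0.14 with ESR1 (limma adjusted p = 0.00053 and 0.0013). Of 16 subunits and regulators of the anaphase promoting complex, 6 were lower with shLATS1B and 6 with shLATS1+2. In YAP/TAZ+ESR1 9 were lower, with YAP/TAZ 1 and with ESR1 6, while 1 was higher with shLATS1+2 and 1 with ESR1. The medians of this list lay between -0.18 and -0.04, and the 6.25% lower with YAP/TAZ is near the 3.84% of all genes. Among 18 DREAM, MuvB and E2F regulators, 6 were lower and 2 higher with shLATS1B, 5 and 1 with shLATS1+2, 8 and 3 in YAP/TAZ+ESR1, 3 and 1 with YAP/TAZ and 6 and 2 with ESR1. The median of that list was -0.22 in YAP/TAZ+ESR1 and between -0.06 and 0.01 in the other 4 groups. MYBL2, which encodes B-MYB, was lower in all 5 comparisons. Its log2 change was -0.28 ± 0.089 with shLATS1B, -0.43 ± 0.089 with shLATS1+2, -0.78 ± 0.089 in YAP/TAZ+ESR1, -0.32 ± 0.089 with YAP/TAZ and -0.45 ± 0.089 with ESR1 (limma adjusted p = 0.031, 0.0014, 3.1e-06, 0.041 and 0.0018). The 12 CDK inhibitors and G1 cyclins did not move together. With shLATS1B 1 was lower and 3 were higher, with shLATS1+2 3 and 2, and in YAP/TAZ+ESR1 1 and 2. With YAP/TAZ the counts were 2 and 1, and with ESR1 2 and 2. The 8.33% lower with shLATS1B and in YAP/TAZ+ESR1 lay below the 11.6% and 14.7% of all genes. Medians over the 12 genes lay between -0.03 and 0.09. Of these, CDKN1A, which encodes the CDK inhibitor p21, was higher in all 5, by 0.41 ± 0.060 with shLATS1B, 0.25 ± 0.060 with shLATS1+2, 1.02 ± 0.060 in YAP/TAZ+ESR1, 0.34 ± 0.060 with YAP/TAZ and 0.37 ± 0.060 with ESR1 (limma adjusted p = 7.1e-05, 0.0057, 1.3e-09, 0.0016 and 0.00037). CDKN1B, which encodes p27, rose by 0.44 ± 0.066 with shLATS1B and 0.59 ± 0.066 with shLATS1+2 (limma adjusted p = 8.2e-05 and 4.1e-06), did not pass in YAP/TAZ+ESR1 (0.08 ± 0.066), and was lower with YAP/TAZ (-0.23 ± 0.066, 0.048) and ESR1 (-0.31 ± 0.066, 0.0036).

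Markers of cell type moved in the same arrays. Of all genes, 11.6% were lower and 12.4% higher with shLATS1B, 13% and 11.8% with shLATS1+2, and 14.7% and 14.7% in YAP/TAZ+ESR1. With YAP/TAZ these shares were 3.84% and 3.16%, and with ESR1 11.9% and 7.04%. Of 7 measured luminal markers 5 were higher in each of shLATS1B, shLATS1+2 and YAP/TAZ+ESR1, and the mean log2 level of the list ran from 8.76 to 8.80 in the shLATS1B arrays, 8.67 to 8.82 in the shLATS1+2 arrays, 8.49 to 8.66 in the YAP/TAZ+ESR1 arrays, 7.99 to 8.04 in the YAP/TAZ arrays, 8.07 to 8.16 in the ESR1 arrays and 7.97 to 8.04 in the control arrays. Of 7 measured markers in the basal list 4 were lower in each of those 3 groups, while 1, 1 and 2 were higher in shLATS1B, shLATS1+2 and YAP/TAZ+ESR1. KRT5, KRT14, ITGA6 and LAMB3 had lower means there than in the control arrays. EPCAM and CDH1, which are not particular to basal cells, had higher means, and EGFR stayed near the control. EPCAM averaged 11.29, 11.33 and 11.25 in the 3 groups and 10.61 in the control arrays. The mean log2 level of the whole basal list was 10.51 to 10.54 in the shLATS1B arrays, 10.38 to 10.50 in the shLATS1+2 arrays and 10.56 to 10.69 in the YAP/TAZ+ESR1 arrays. It was 10.85 to 10.91 in the YAP/TAZ arrays, 10.74 to 11.02 in the ESR1 arrays and 10.89 to 11.05 in the control arrays. None of the basal or luminal markers in any group was under the limit for dim genes. None of 6 fibroblast markers was called in the 5 comparisons with the control. Of 7 leukocyte and endothelial markers 5 were under the limit for dim genes in every group, and CD14 and PECAM1 were called higher in shLATS1B, shLATS1+2 and YAP/TAZ+ESR1. From this list 1 marker was also called higher with YAP/TAZ and 1 with ESR1. CD14 averaged 9.67 in the YAP/TAZ arrays, 9.54 in the ESR1 arrays and 9.05 in the control arrays. The luminal and basal lists thus changed in the knockdown and YAP/TAZ+ESR1 groups, whereas the members were also lower in the YAP/TAZ and ESR1 arrays. There 1 luminal marker was lower with YAP/TAZ and 1 was higher with ESR1. In the basal list 2 markers were lower in each, and 2 were higher with ESR1. The luminal list includes ESR1, so its counts and means hold the gene of 1 of the cDNAs. ESR1 was the luminal marker called higher with ESR1 cDNA, and 1 of the 5 called higher in YAP/TAZ+ESR1. It was also called higher in both knockdowns, which had received no ESR1 cDNA. The part of cell state in the members' changes was not tested.

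RefSeq promoter windows were found for 34 of the 40 members, and those of TPX2, UBE2C, BIRC5, FOXM1, AURKA and TTK were not matched. The CHR motif TTTGAA was present on either strand in 28 of the 41 windows of members (68.3%) and in 15.2% of 35116 windows of all genes. The CCAAT box was present in 32 of the 41 (78.0%) and in 34.6% of all windows. By gene, 25 of 34 members had a CHR match, 28 had a CCAAT match and 21 had both. Of 14230 genes on the array with a window, 15.7% had a CHR match, 42.2% a CCAAT match and 6.49% both. The CHR matches of members lay near the start of the gene: 65% of 40 matches began within 50 bases of it, where 25.8% of 2814 matches in genes on the array did, and the median position relative to the start was -29 in members and -130 in those genes. The spindle motors and assembly factors with a window other than KIF2C, the kinetochore members other than CENPE, and MKI67 and TOP2A had a CHR match, as did BUB1B, whose single match begins 23 bases before the start in the sequence printed above. The fall in YAP/TAZ+ESR1 did not separate by this motif: 24 measured members with a CHR match had a median log2 change of -0.85 (-1.38 to -0.58) and 9 without one had a median of -1.07 (-1.42 to -0.41). CENPE, with neither motif, and PTTG1, with CCAAT matches only, stood at the 2 ends of the range of changes.

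**Figure D5:**
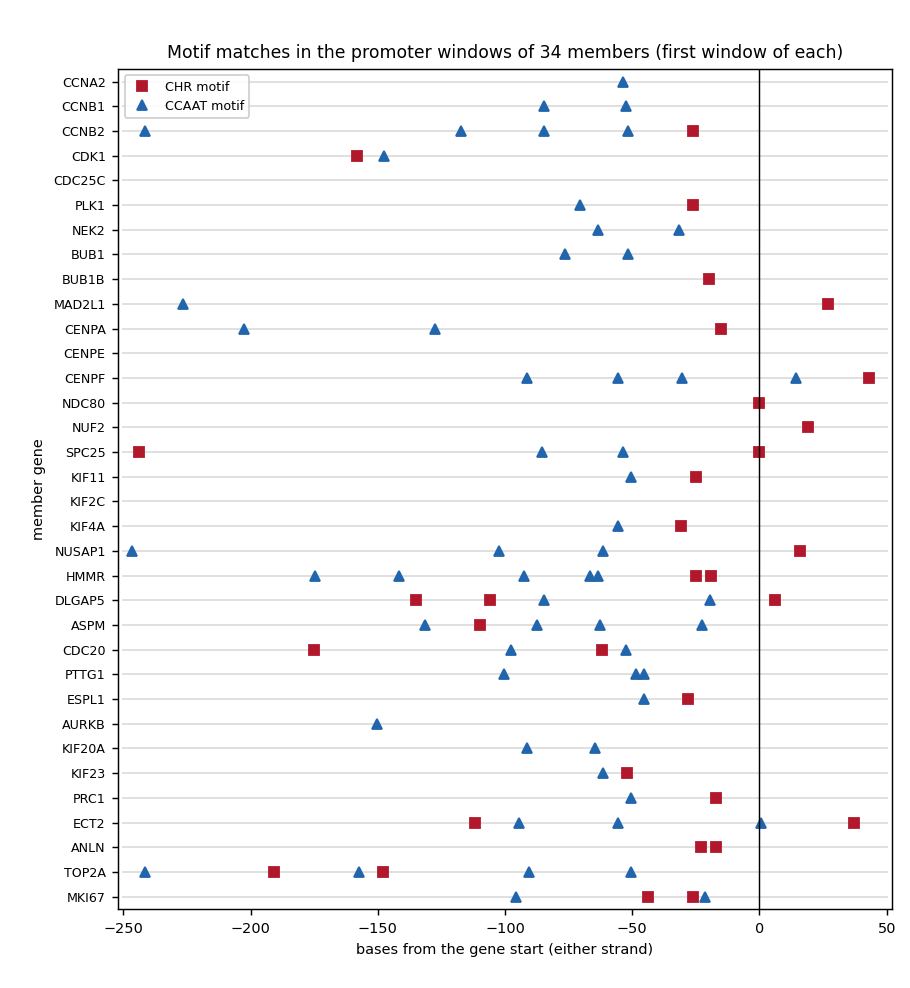
Positions of CHR and CCAAT matches (points) relative to the start of the gene in bases (horizontal axis) in the first listed RefSeq window of each of 34 members (rows). CHR matches gather close to the start and CCAAT matches lie mostly further before it, CENPE, KIF2C and the drawn window of CDC25C hold neither, and the further windows of the 5 members with more than 1 window are not drawn.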

How the data were processed

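RNA of MCF10A cells in 6 groups of 3 was hybridised, from 100 ng of total RNA, to Affymetrix whole-transcript arrays. The values are log2 expression values deposited by the authors, made with affy, an R package, per the submitters' processing notes. Which affy version, background method, normalization and probe summary were used is not given in the sources used here. Of 32321 probe sets, 19158 carried 1 gene symbol in the platform annotation, 1388 carried several and 11775 none, and a probe set with several symbols named no gene. Of the single symbols 19128 matched RefSeq. The probe set with the highest mean stood for a gene with several (637 genes), which left 18404 genes.

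The members and lists were chosen with earlier results of these data known. A mean per group was fitted to all 18 arrays with limma 3.58.1 in R 4.3.3, with 12 residual degrees of freedom and a moderated prior of 3.94, and p-values were adjusted by Benjamini-Hochberg over all genes. There were 11 comparisons, 2 of them added after the data were seen. The fitting was tested on simulated data. Tables and figures were made in Python 3.11.15 with pandas 2.3.3, scipy 1.17.1 and matplotlib 3.10.9. The number of arrays limits the precision.

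Values in every array are given for the 18 members named by rule: in each comparison with the control, up to 5 called members with the largest change and no overlap with the control, in each step the member with the largest mean change over shLATS1B, shLATS1+2 and YAP/TAZ+ESR1, members called against the majority, and up to 5 called in the interaction or in each direct comparison. Printed promoters belong to the 3 members with the most negative such mean and the 1 with the least negative. The other members named, and those in the promoter plot, were chosen after their values were seen, as was PTTG1's account by array. Of each other list, genes were named among the 3 called ones with the largest such mean, except CDKN1A and CDKN1B, named for their role as inhibitors. Lists of S phase, kinetochore, condensin and cohesin, anaphase promoting complex, DREAM and E2F, CDK inhibitor and G1 cyclin, and spindle and cytokinesis genes were counted. Marker lists covered basal and luminal epithelium, fibroblasts, and leukocytes with endothelium.

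The alternatives were each array centred on its median, quantile normalization, genes above the 30th percentile of means, every named probe set, trend and robust moderation, a fit of only the groups compared, the replicate number as a block, each of 18 arrays left out in turn and, added after the data were seen, ESR1 array 1 and shLATS1+2 array 3 left out together. These make 26 settings.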

Additional observations from a re-analysis of the deposited data

Results flagged for a closer look

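In 5 members the difference between arrays labelled with and without YAP/TAZ cDNA changed with the ESR1 label, by the limma test of the interaction. This is 4 of 39 lower and 1 higher, against 7.68% of all genes lower and 11.4% higher, so these are values of single genes and say nothing particular about the list. For MAD2L1, the checkpoint protein, the interaction was -0.84 on the log2 scale (adjusted p = 0.015) and ran from -1.04 to -0.72 over 26 settings, all of which passed. For HMMR, the spindle pole protein, it was -0.74 (limma adjusted p = 0.017), from -0.90 to -0.60, and 24 of 26 settings passed. CCNB1, cyclin B1, had -0.56 (limma adjusted p = 0.00052) and BIRC5, survivin, had -0.56 (0.00024 with every named probe set tested). CDC25C, the phosphatase that activates CDK1, had 0.48 (limma adjusted p = 0.0022). The interactions of CCNB1, BIRC5 and CDC25C passed in all 26 settings, from -0.63 to -0.51, -0.65 to -0.52 and 0.38 to 0.55. MAD2L1 and HMMR are also members whose ESR1 array 1 read low, and BIRC5's second probe set had no interaction (0.0019, limma adjusted p = 0.996). Genes of the cDNAs had interactions of their own, 0.92 for WWTR1, 0.37 for YAP1 and -0.65 for ESR1 (limma adjusted p = 7.4e-05, 0.021 and 0.00076). Neither YAP1 nor WWTR1 was higher with YAP/TAZ alone, so the 5 values follow the labels and not matched cDNA levels. The part of these points in the 5 values was not tested.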

How the results depend on the processing

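Over the 26 alternative settings YAP/TAZ+ESR1 kept 39 members lower, and no member was called higher than the control in any group. The counts of members lower ran from 28 to 37 for shLATS1B, 25 to 32 for shLATS1+2, 18 to 34 for YAP/TAZ and 24 to 34 for ESR1. The shares of all genes lower ran from 8.95% to 20.1%, 10.3% to 18.7%, 2.34% to 6.21% and 3.59% to 18.5% in the same order. For YAP/TAZ+ESR1 that share ran from 11.9% to 23.6%. Without single arrays the interaction called 3 to 7 members lower and 1 to 5 higher, where 5.44% to 12.5% of all genes were lower and 8.35% to 18% higher, and 6 lower and 6 higher without ESR1 array 1 and shLATS1+2 array 3 (13.4% and 19% of all genes). Without those 2 arrays 1 member was higher in YAP/TAZ+ESR1 minus ESR1, against 22% of all genes. With arrays centred on their medians the members' median log2 change was -0.53 for shLATS1B, -0.44 for shLATS1+2, -0.99 for YAP/TAZ+ESR1 and -0.53 for ESR1. For ESR1 it was -0.42 with quantile normalization and -0.53 without the 2 arrays. Without single arrays it ran from -0.40 to -0.34 for shLATS1+2, -0.93 to -0.87 for YAP/TAZ+ESR1 and -0.53 to -0.46 for ESR1. The values that turned sign were small and none passed. With shLATS1+2, CDK1 was -0.032 with centred arrays, -0.065 without the 2 arrays and -0.095 to 0.082 without single arrays, and NUF2 was -0.0067, -0.085 and -0.10 to 0.12 under the same settings. MAD2L1 with shLATS1+2 ran from -0.21 to 0.018 without single arrays. With ESR1, HMMR was 0.0055 with quantile normalization, 0.12 without the 2 arrays and -0.18 to 0.12 without single arrays. NUF2 with ESR1 was 0.066 without the 2 arrays and -0.28 to 0.066 without single arrays, BIRC5 was 0.012 with quantile normalization, and MAD2L1 ran from -0.037 to 0.29 without single arrays. The causes were not tested.

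The replicate numbers did not pair the arrays: deviations of same-numbered arrays correlated with r from -0.69 to 0.63, with 13 of 45 pairs over 0.1, and 4 of 18 arrays correlated best with their own number. With the replicate number as a block, 30 members were lower for shLATS1B, 29 for shLATS1+2, 39 for YAP/TAZ+ESR1, 25 for YAP/TAZ and 34 for ESR1. Of all genes 11.1%, 12.4%, 14.3%, 3.42% and 11.2% were lower in that order. The interaction then called 4 members lower and 1 higher, against 7.22% and 10.8% of all genes.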

Other observations

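Among genes outside the list, those whose values over the 18 arrays followed the mean of the members most closely, a choice made after the data were seen, included the centriole duplication factor STIL (Pearson r = 0.978), the exonuclease EXO1 (0.971), GPSM2 (0.969), which orients the spindle, and METTL3 (0.968), the mRNA methyltransferase. All 18 arrays share these correlations' source of spread, which is mostly between groups, so they are descriptions. STIL averaged 9.31 ± 0.045 in the shLATS1B arrays, 9.37 ± 0.087 in the shLATS1+2 arrays, 8.91 ± 0.063 in the YAP/TAZ+ESR1 arrays, 9.45 ± 0.072 in the YAP/TAZ arrays, 9.32 ± 0.066 in the ESR1 arrays and 9.72 ± 0.054 in the control arrays (mean log2 value ± SD, n = 3 each).

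The genes that ran most opposite to the members included LCN2, an iron-scavenging protein of innate defence (r = -0.977), MYD88, an adaptor of Toll-like receptors (-0.960), SESN2, a stress-induced regulator of mTORC1 (-0.958), the complement proteases C1S (-0.956) and C1R (-0.953), MDM2, the ubiquitin ligase of p53 (-0.952), and TLR3, a receptor for double-stranded RNA (-0.948). MDM2 averaged 11.59 ± 0.019 in the shLATS1B arrays, 11.62 ± 0.056 in the shLATS1+2 arrays and 11.80 ± 0.045 in the YAP/TAZ+ESR1 arrays (mean log2 value ± SD, n = 3 each). It averaged 11.52 ± 0.0044 in the YAP/TAZ arrays, 11.58 ± 0.020 in the ESR1 arrays and 11.33 ± 0.017 in the control arrays. C1S averaged 9.33 ± 0.076 in the YAP/TAZ+ESR1 arrays and 6.38 ± 0.17 in the control arrays, with the other 4 groups between 7.63 and 8.09. TLR3 averaged 10.65 ± 0.0041 in the YAP/TAZ+ESR1 arrays and 9.05 ± 0.016 in the control arrays, with the other 4 groups between 9.92 and 10.21. MDM2, C1S and TLR3 thus had, like LCN2 and SESN2, their highest group mean where the mitotic genes had their lowest.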
